A study of Mus musculus with 4 samples.

Results

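The interferon regulatory factors described here are the 8 genes Irf1, Irf2, Irf3, Irf4, Irf5, Irf7, Irf8 and Irf9, chosen by name among 18194 genes read on the arrays. They were covered by 14 of the array's 45101 probe sets, each paired with a single gene, and where a gene had several, the one with the highest mean was used. Expression was measured on 4 Affymetrix arrays, 2 from control and 2 from SAHA-treated dendritic cells. All 4 came from bone marrow of C57BL/6 mice with no genetic change named, at least 3 mice pooled for each experiment, grown in GM-CSF and IL-4 (10 ng/ml each) for 7 days. CD11c-positive cells were selected by magnetic sorting to a stated purity of 95% and then kept for 12 hours with diluent (control) or with SAHA, at a dose that the labels write as 500 nm. SAHA (vorinostat) inhibits histone deacetylases, which take acetyl groups off histones and other proteins. Arrays of a group are labelled as biological replicates, but no label says that their marrow pools were separate, so the p-values speak of the spread among 4 arrays, which may be technical. The smallest p that an exact permutation test (two-sided) of 1 gene allows with 2 arrays against 2 is 0.333.

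Interferon regulatory factors are transcription factors that share an N-terminal DNA-binding domain and recognise repeats of GAAA in interferon-stimulated response elements and related sites. IRF3, IRF5 and IRF7 sit downstream of pattern recognition receptors and are activated by phosphorylation to switch on type I interferon and cytokine genes. IRF9 is the DNA-binding part of ISGF3, the complex that answers type I interferon, while IRF1 is induced by interferon gamma and IRF2 binds the same sites, often as its antagonist. IRF4 and IRF8 pair with other factors such as PU.1 and BATF family proteins and direct the formation of dendritic cell subsets, IRF4 for type 2 conventional cells and IRF8 for type 1 conventional and plasmacytoid cells.

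Irf4 rose with SAHA, and none of the other 7 genes passed the test in either direction. Irf4 went up 1.75-fold, Irf7 had the change of largest size on the lower side (-0.71 log2 units, not past the test), and the remaining 6 lay between -0.32 and 0.20 log2 units. Thus 1 of 8 members was called (limma, Benjamini-Hochberg adjusted p under 0.05 over all genes), against 2.23% of all genes in either direction and 1.52% on the higher side. The median change over the 8 was -0.03 log2 units, beside -0.05 over all genes, with 4 members above and 4 below 0. Both SAHA arrays lay above both control arrays for Irf4 and Irf5 (21.1% of all genes did so) and below them for Irf7 (29.6% of all genes). The groups overlapped for the other 5 members, and they did not overlap for 50.7% of all genes in either direction.

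**Figure D1:**
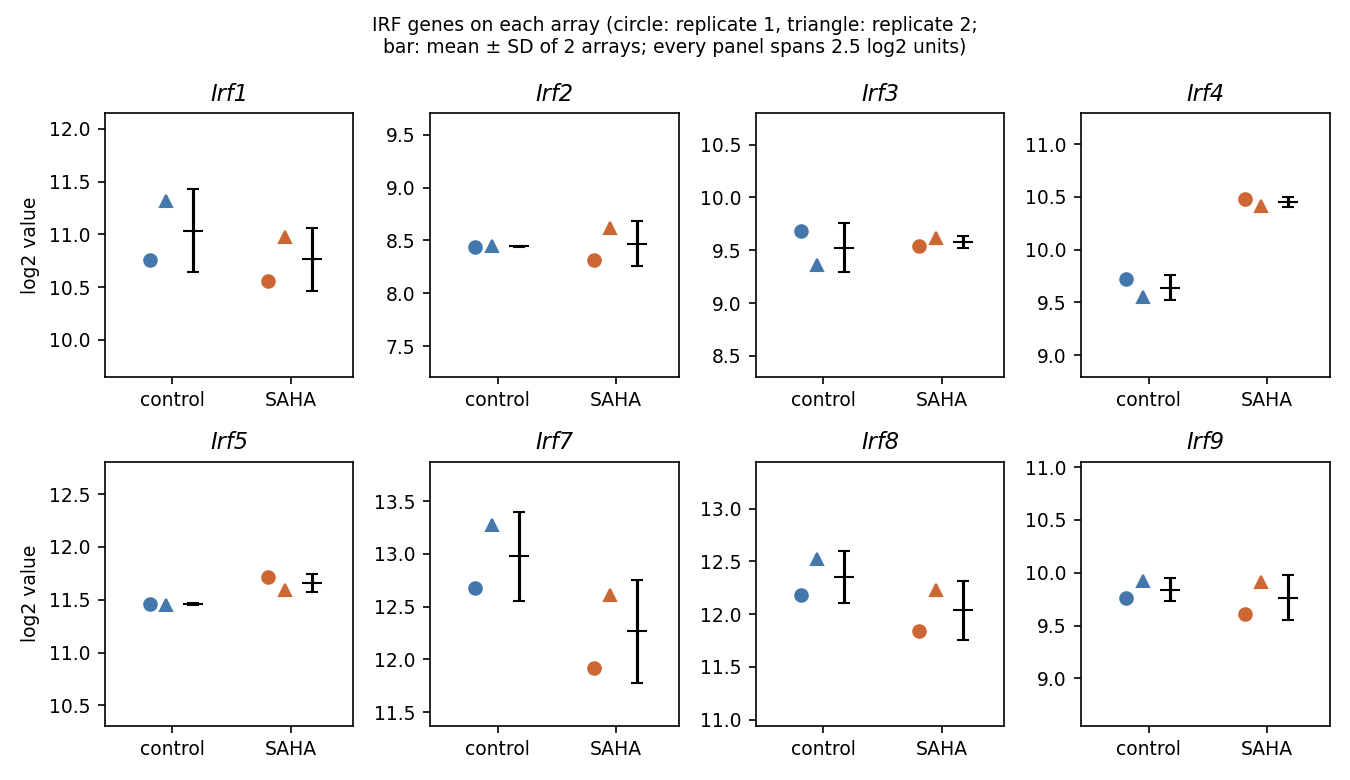
Log2 value of each IRF gene (vertical axis) on the control (blue) and SAHA (orange) arrays, circles for replicate 1 and triangles for replicate 2, with the mean ± SD of each group's 2 arrays beside them. Irf4 is the gene whose groups stand clearly apart, at 9.55 to 9.73 against 10.42 to 10.48, while in Irf1, Irf2, Irf7, Irf8 and Irf9 the triangle lies above the circle in both groups.

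The cells carried the RNA of myeloid cells that present antigen. Of the 12 dendritic markers none was called, where 2.23% of all genes were, and their median was -0.03 log2 units. Some moved without passing, with Cd86 at 1.04 (limma adjusted p = 0.249), Dpp4 at -0.87 (0.0909) and Ccr7 at -0.49 (0.118). These were named after their values were seen. Itgax, which encodes CD11c, lay between 12.44 and 13.40 log2 units and the class II chain H2-Aa between 14.20 and 14.45. Cd209a, a marker of monocyte-derived dendritic cells, lay between 4.47 and 4.68, under the median of each array. Macrophage markers were present too, with Csf1r between 13.81 and 13.96, and none of 8 was called. Their median was -0.12, and Mertk, named after its values were seen, came close to the threshold at -0.92 (limma adjusted p = 0.0509). Over all genes 0.709% were called lower and 1.52% higher. Of 10 neutrophil markers S100a8, S100a9, Ngp, Camp and Ltf fell and Prtn3 rose, with a list median of -0.66 log2 units. Their summed linear level was 6296 to 8608 in control and 8835 to 10560 with SAHA, and the largest part of it on each array was Mmp8, a neutrophil collagenase that was not called (0.86, adjusted p = 0.143). The part of neutrophil RNA in the IRF values was not tested. None of 7 plasmacytoid, 7 B cell, 8 T and NK cell, 8 mast cell, basophil and eosinophil or 4 erythroid markers was called. On all 4 arrays Cd3g, Mcpt8, Fcer1a, Ms4a2 and Car1 stayed below the 25th percentile of each array. No plasmacytoid or B cell marker did so. Bst2 (12.60 to 12.99), Klrk1 (9.17 to 10.46) and Gata2 (6.87 to 7.85), of the plasmacytoid, T and NK and mast cell lists, lay above each array's median. They were picked with their levels already known. Whether cells of these lineages were present was not tested.

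The sequences upstream of the transcription start are shown for Irf4, Irf7, Irf8 and Irf1, the members with the 4 changes of largest size, so that the start regions can be read beside the values. Each run covers the 250 bases before the start on the gene's own strand, 5′ to 3′, from RefSeq on build GRCm38.p6, where all 8 members were found. Irf8 and Irf1 have 2 listed starts and the more upstream is shown. The listed start of Irf7 lies inside the annotated gene, which reaches 141266499, so its window overlaps the gene. Capitals mark matches, on either strand, to GAAA repeated after any 2 bases (the core of the interferon-stimulated response element), TTCNNNGAA (the gamma-activated site bound by STAT dimers) or TATAAA (the TATA box), and no matches overlapped.
Irf4, chr13:30748983-30749232, plus strand: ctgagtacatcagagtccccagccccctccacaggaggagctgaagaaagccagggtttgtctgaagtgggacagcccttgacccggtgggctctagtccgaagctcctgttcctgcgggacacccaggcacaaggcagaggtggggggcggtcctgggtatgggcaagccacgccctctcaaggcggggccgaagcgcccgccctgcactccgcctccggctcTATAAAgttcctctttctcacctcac
Irf7, chr7:141266425-141266674, minus strand: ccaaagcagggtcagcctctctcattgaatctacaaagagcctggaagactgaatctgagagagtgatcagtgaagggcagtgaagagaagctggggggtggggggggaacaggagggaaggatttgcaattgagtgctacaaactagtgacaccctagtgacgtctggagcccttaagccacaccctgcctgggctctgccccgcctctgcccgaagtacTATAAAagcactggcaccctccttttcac
Irf8, chr8:120736108-120736357, plus strand: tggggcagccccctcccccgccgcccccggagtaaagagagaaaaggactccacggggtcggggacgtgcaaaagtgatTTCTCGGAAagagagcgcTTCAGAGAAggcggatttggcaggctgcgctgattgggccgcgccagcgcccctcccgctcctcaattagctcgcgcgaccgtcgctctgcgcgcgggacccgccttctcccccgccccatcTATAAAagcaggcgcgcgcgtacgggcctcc
Irf1, chr11:53769764-53770013, plus strand: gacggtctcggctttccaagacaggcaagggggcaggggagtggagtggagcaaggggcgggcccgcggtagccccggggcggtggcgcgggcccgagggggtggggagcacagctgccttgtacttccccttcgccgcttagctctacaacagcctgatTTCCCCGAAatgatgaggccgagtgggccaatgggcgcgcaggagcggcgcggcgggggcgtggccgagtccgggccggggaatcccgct

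The windows differed in which of these letters they held. TATAAA stood on the gene's own strand 26 to 21 bases before the start of Irf4, 29 to 24 before that of Irf7 and 31 to 26 before that of Irf8, and 12.4% of the 32851 windows of this length in the table held it on either strand. Irf8 held 2 gamma-activated sites and Irf1 and Irf2 held 1 each, a motif found in 7.02% of all windows. Of the 8 members Irf2 was the one with a match to the response element, gaaaatgaaa, which 2.98% of all windows held. The Irf4 window held 11 CpG dinucleotides and that of Irf7 held 3, against 29 for Irf8 and 25 for Irf1 and a median of 6 over all windows. These matches describe letters in the windows and not binding, which was not measured.

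Irf4 drives type 2 conventional dendritic cells and is itself induced in cells grown with GM-CSF and IL-4. Its values were 9.73 and 9.55 log2 units on the control arrays and 10.48 and 10.42 on the SAHA arrays. Both SAHA arrays lay above both control arrays, and the gap between the groups was several times the distance between arrays of a group. The mean went from 9.64 ± 0.12 to 10.45 ± 0.05 (SD, n = 2 per group), a rise of 0.81 ± 0.14 log2 units (SE, 95% interval 0.48 to 1.14, limma adjusted p = 0.0431). Of all genes 4.32% had a change of at least this size.

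The call of Irf4 stood close to the threshold, and its dimmer probe set gave a smaller and less precise value in the same direction. That probe set read 7.12 and 7.00 in control and 7.72 and 6.90 with SAHA, so that the groups overlapped, with a change of 0.26 (95% interval -0.40 to 0.91, from a fit over all probe sets, as for every further probe set). With the mean of both probe sets the change was 0.53 (adjusted p = 0.215). The call was also lost without control replicate 2 (0.72, adjusted p = 0.105), without SAHA replicate 1 (0.77, 0.279) and without SAHA replicate 2 (0.84, 0.154), each time with Irf4 higher in SAHA-treated cells. In bulk RNA a change in the share of cells that express a gene and a change in RNA per cell cannot be told apart.

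The genes whose profile over the 4 arrays was nearest to that of Irf4, as the Euclidean distance between log2 values centred on each gene's own mean, were Nabp1 (distance 0.04), C2cd5 (0.05) and Nhsl2 (0.05). Nabp1, a single-stranded DNA-binding protein of DNA repair, read 11.39 and 11.26 in control and 12.14 and 12.09 with SAHA. Its change of 0.79 ± 0.12 passed the test (SE, adjusted p = 0.0341), whereas C2cd5 at 0.85 and Nhsl2 at 0.83 had an adjusted p of 0.0546. C2cd5 and Nhsl2 passed in limma without the intensity trend (adjusted p = 0.0415 and 0.0411) and with a robust estimate of the spread (0.0486 and 0.0487). With the mean of each gene's probe sets the 3 gave 0.59 (adjusted p = 0.207), 0.52 and 0.29, and Nabp1 also lost its call without control replicate 2 (0.72, adjusted p = 0.0756), SAHA replicate 1 (0.76, 0.230) or SAHA replicate 2 (0.81, 0.127). Likeness over so few arrays is a description of these arrays alone.

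Irf8, which with BATF3 sets the fate of type 1 conventional dendritic cells, was read at 12.18 and 12.53 log2 units in control and at 11.84 and 12.23 with SAHA. The higher SAHA array lay above the lower control array, so the groups overlapped. The change was -0.32 ± 0.18 (SE, 95% interval -0.75 to 0.12, adjusted p = 0.412), and it lay between -0.51 (without SAHA replicate 2) and -0.12 (without SAHA replicate 1) when 1 array was left out. A further probe set of Irf8 read 11.37 and 11.73 in control and 11.21 and 11.82 with SAHA, a change of -0.03 (95% interval -0.58 to 0.51). Both intervals hold 0, and neither shows that Irf8 stayed at its level.

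**Figure D2:**
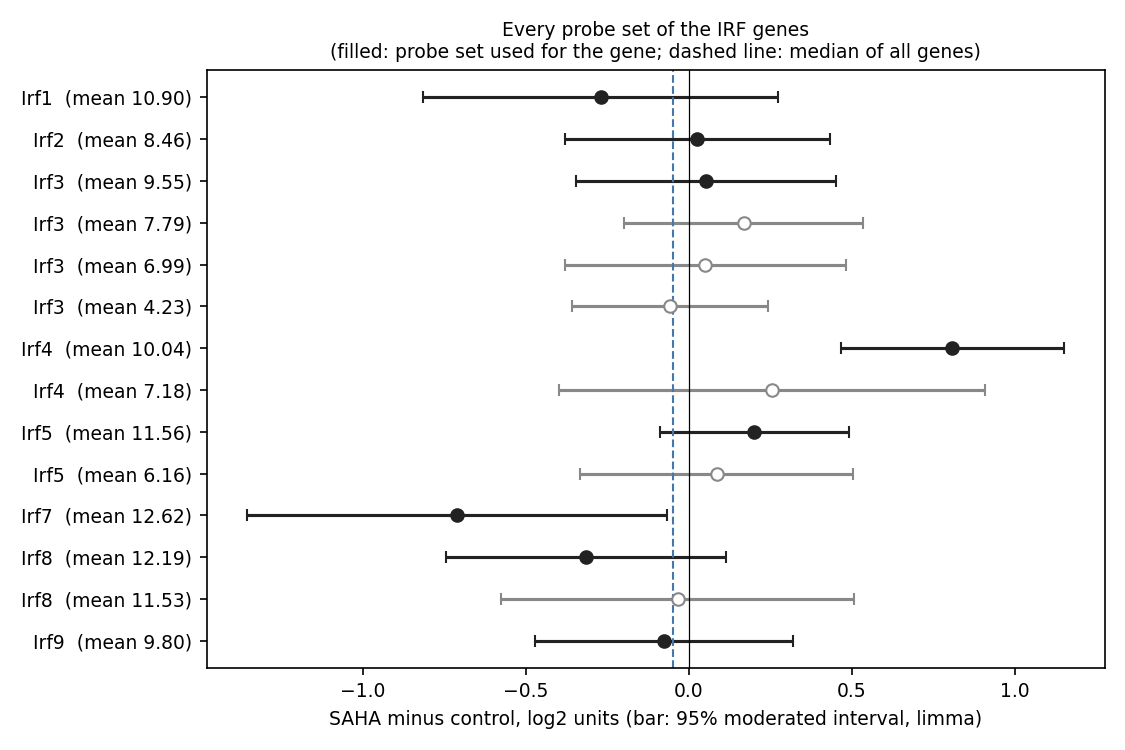
Difference between SAHA and control in log2 units (horizontal axis) for all 14 probe sets of the IRF genes, with 95% moderated intervals from the fit over all probe sets, labelled by gene and by mean over the 4 arrays. Filled points are the probe sets by which genes were read, and the dashed line is the median of all genes at -0.05. The Irf4 probe sets differ, at 0.81 and 0.26, and the interval of Irf7 lies below 0 while its adjusted p does not pass.

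Irf7, the factor that amplifies type I interferon production, gave 12.68 and 13.28 log2 units in control and 11.92 and 12.61 with SAHA. Both SAHA arrays lay below both control arrays, yet SAHA replicate 2 came within 0.1 of control replicate 1, and arrays of the same treatment lay well apart. The mean was 12.98 ± 0.42 in control and 12.27 ± 0.49 with SAHA (SD, n = 2 per group). The difference of -0.71 ± 0.27 (SE, 95% interval -1.37 to -0.05) had an unadjusted p of 0.0383 and an adjusted p of 0.246 in limma, so Irf7 was not called, and 18.1% of all genes had an unadjusted p under 0.05. In size 5.84% of all genes changed at least as much. Leaving out 1 array at a time moved the difference between -1.06 (without SAHA replicate 2) and -0.37 (without SAHA replicate 1). A single probe set reported Irf7.

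Irf3, the constitutively made factor that TBK1 activates, had 4 probe sets. The one of highest mean, of the x_at type, whose probes may also match other transcripts, read 9.69 and 9.36 in control and 9.54 and 9.61 with SAHA. Both SAHA values lay between the control values, and the change was 0.05 ± 0.16 (SE, 95% interval -0.34 to 0.44, adjusted p = 0.889). The other three gave 0.17, 0.05 and -0.06. In the first of these both SAHA arrays (7.91 and 7.83) lay above both control arrays (7.71 and 7.70), with a 95% interval of -0.20 to 0.54.

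Irf5, which acts downstream of MyD88 and promotes inflammatory cytokine genes, read 11.46 and 11.45 in control and 11.72 and 11.60 with SAHA. Both SAHA arrays were above both control arrays, by a small margin. The change of 0.20 ± 0.12 (SE, 95% interval -0.08 to 0.48) did not pass (adjusted p = 0.426). Its dimmer probe set read 6.16 and 6.08 against 6.36 and 6.05, which overlap, with a change of 0.08.

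Among the factors of the interferon response, Irf9 read 9.76 and 9.92 in control and 9.61 and 9.91 with SAHA. The groups overlapped, with SAHA replicate 1 below both control arrays. Its change was -0.08 ± 0.16 (SE, 95% interval -0.46 to 0.31, adjusted p = 0.831). Irf1 read 10.76 and 11.31 in control and 10.55 and 10.97 with SAHA, overlapping as well. Its change was -0.27 ± 0.23 (95% interval -0.82 to 0.28, adjusted p = 0.573), and without control replicate 2 it was 0.01. Irf2 read 8.44 and 8.45 in control and 8.32 and 8.62 with SAHA, so the SAHA arrays lay on either side of the control arrays. Its change of 0.02 ± 0.16 (95% interval -0.37 to 0.42, adjusted p = 0.951) turned to -0.04 with quantile normalization. For Irf1, Irf2 and Irf9 the array carried 1 probe set each.

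Several of these genes differed as much between arrays of one treatment as between treatments. The second array read higher than the first in both groups for Irf1, Irf2, Irf7, Irf8 and Irf9, that is for 5 of 8 members, and lower in both for Irf4 and Irf5. Over all genes 37.8% read higher on the second array in both groups. The same pattern ran through the interferon-stimulated genes, of which 21 of 22 were higher on the second array in both groups. Their median per array was 11.54 and 12.51 log2 units in control and 11.80 and 12.43 with SAHA. Whether the interferon state of the cultures bears on the IRF values was not tested.

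**Figure D3:**
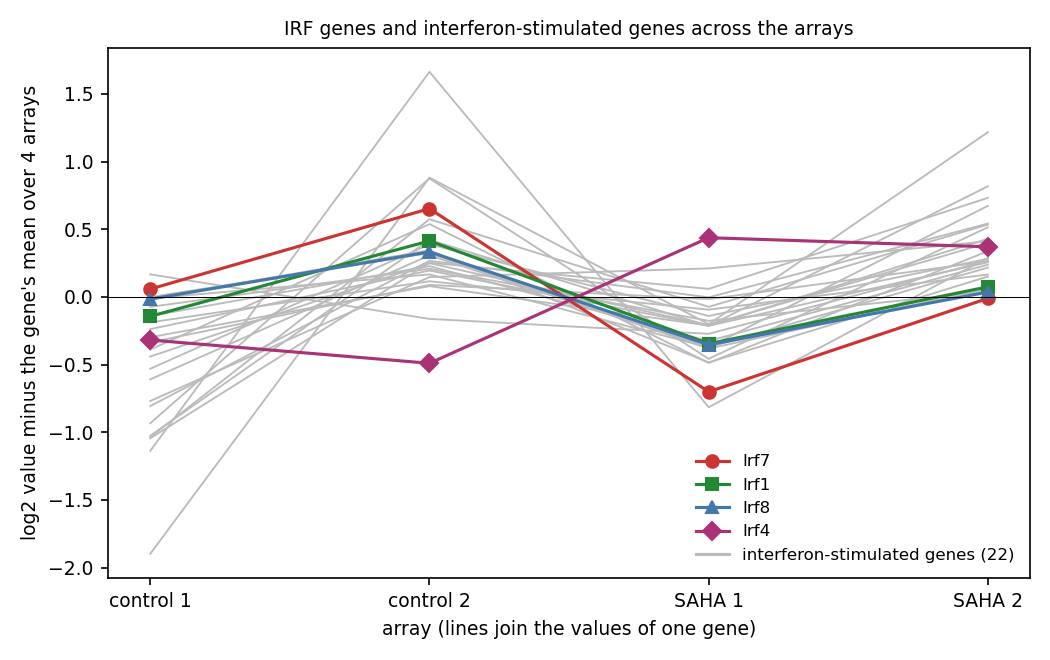
Log2 values minus each gene's mean over the 4 arrays (vertical axis) on each array (horizontal axis), for Irf7, Irf1, Irf8 and Irf4 in colour and 22 interferon-stimulated genes in grey, with lines joining 1 gene's values. The grey lines run higher on the second array of each group for 21 of 22 genes, as do Irf7, Irf1 and Irf8, whereas Irf4 runs lower on it. The treatment groups do not overlap for Irf4 or, by a narrower gap, for Irf7 (50.7% of all genes did not overlap).

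Genes that act before the factors stayed under the test. None of 11 measured genes of interferons, their receptors and of the kinases and STAT2 behind them was called (limma), where 2.23% of all genes were. An unadjusted p under 0.05 was found for 2 (18.1% of all genes), and the median was 0.05 log2 units. Ifngr1 and Ifngr2, the chains of the interferon gamma receptor, gave 0.48 ± 0.15 and -0.41 ± 0.14 (SE, adjusted p = 0.169 and 0.205). Ifnb1, which encodes interferon beta, read 4.82 and 6.13 in control and 4.58 and 5.25 with SAHA, so that its groups overlapped. Ifnar2, a chain of the type I interferon receptor, gave 0.20, or -0.06 with the mean of its probe sets.

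None of the 14 measured genes that lead from receptors to IRF phosphorylation was called, where 2.23% of all genes were. Of the 14, 1 had an unadjusted p under 0.05 (18.1% of all genes did), and 10 lay below 0 beside 58.8% of all genes. The median of the 14 was -0.12. Sting1, the adaptor of cytosolic DNA sensing, had the change of largest size at 0.49 ± 0.13 (SE, adjusted p = 0.129), and both its SAHA arrays (10.60 and 10.73) lay above both control arrays (10.11 and 10.24). Cgas, the enzyme that makes the ligand of STING, gave -0.31, the kinase Irak1 -0.32 and the adaptor Mavs 0.36. The kinases Tbk1 and Ikbke, which phosphorylate IRF3 and IRF7, gave -0.25 and -0.23, and Myd88 gave -0.26. On the other side Ticam1 gave 0.23 and Tlr3 0.14. Tbk1, Ikbke, Myd88, Ticam1 and Tlr3 were named after their values were seen.

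Partner and cofactor genes moved in both directions without passing the test. None of 22 was called (2.23% of all genes were), 6 had an unadjusted p under 0.05 (18.1% of all genes did), and the list median was -0.02. Tcf4, the E protein of plasmacytoid dendritic cells, read 8.002 and 8.38 in control and 8.95 and 9.27 with SAHA. Its difference was 0.92 ± 0.20 (SE, adjusted p = 0.0759), or 0.73 with the mean of its probe sets (0.1215). Crebbp, an acetyltransferase that serves IRF3 as coactivator, gave -0.76 ± 0.16 (adjusted p = 0.0759), or -0.26 with the mean of its probe sets (0.501). Klf4, needed with IRF4 in a part of the type 2 conventional cells, gave 0.71, and the repressor Zeb2 0.66. Of the factors that bind DNA jointly with IRF4 or IRF8, Spi1 (PU.1) gave -0.22, Batf -0.25 and Batf3 -0.23. Other partner genes did not fall, with Spib at 0.02, Ikzf1 at 0.17 and Etv6 at 0.42. All of the genes in these last sentences were named after their values were seen. Of the 22 genes on the list, 11 lay above 0 and 11 below.

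**Figure D4:**
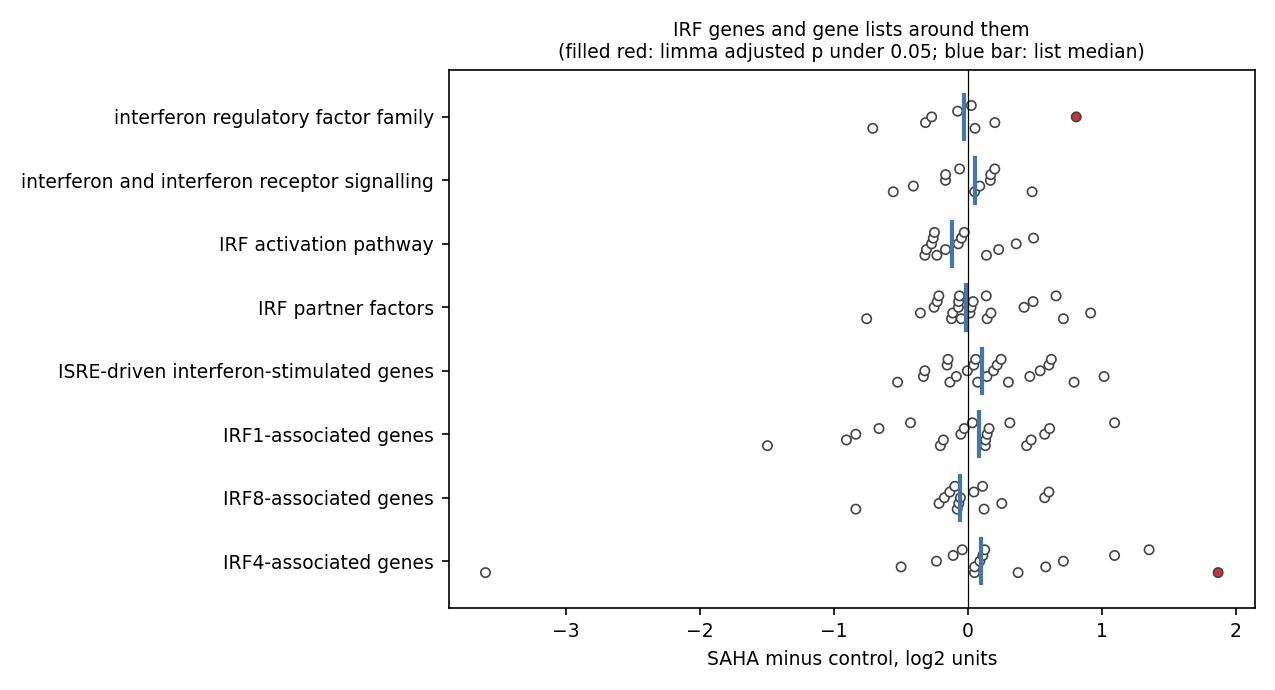
Difference between SAHA and control in log2 units (horizontal axis) for every measured gene of the IRF family and of 7 lists around it (rows), with the list median as a blue bar and genes at a limma adjusted p under 0.05 filled in red. Irf4 and Clec10a are the 2 filled genes, and every list median lies between -0.12 and 0.11.

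Genes known to respond to these factors were read as lists. Of 22 interferon-stimulated genes driven through response elements none was called (2.23% of all genes were). None had an unadjusted p under 0.05, where 18.1% of all genes had one. Of these 22, 14 lay above 0 and 8 (36.4%) below it, beside 58.8% of all genes below 0, and the median was 0.11. Cmpk2, a mitochondrial nucleotide kinase, read 9.20 and 11.97 in control and 10.89 and 12.31 with SAHA, so its difference of 1.02 ± 0.88 (SE) was smaller than the gap between the control arrays. Ifit1 gave 0.79 ± 0.42 and Ifit3 0.60 ± 0.51, both RNA-binding antiviral proteins. Without control replicate 1 Ifit1 gave 0.14, and without control replicate 2 it gave 1.44 and passed (adjusted p = 0.0441). Rsad2, which encodes viperin, was the 1 gene of the list whose arrays did not overlap, at 12.87 and 13.78 against 13.84 and 14.05. Over all genes 50.7% did not overlap, and 21.1% had both SAHA arrays above both control arrays.

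Of 20 genes associated with IRF1 none was called (2.23% of all genes were). An unadjusted p under 0.05 was found for 6 (18.1% of all genes), and the median was 0.08. Psmb10, an immunoproteasome subunit, read 12.03 and 12.41 in control and 10.29 and 11.15 with SAHA, a difference of -1.50 ± 0.28 (SE, adjusted p = 0.0583). Ciita, the transactivator of the MHC class II genes, gave 1.09 ± 0.23 (adjusted p = 0.0759), and Il15ra, which presents IL-15, gave -0.91 ± 0.37 (adjusted p = 0.268). Among 14 genes associated with IRF8 none was called, 2 had an unadjusted p under 0.05 (18.1% of all genes did), and the median was -0.06. Il12b, the shared chain of IL-12 and IL-23 and on both lists, read 9.30 and 9.72 in control and 8.42 and 8.93 with SAHA, a difference of -0.84 ± 0.23 (adjusted p = 0.130). The repressor Bcl6 gave 0.60, the lysosomal protease Ctsc 0.25 and the chemokine Cxcl9, also on both lists, 0.57. Xcr1, the chemokine receptor that marks type 1 conventional cells, lay between 3.82 and 4.24 on the 4 arrays and was named after its values were seen.

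Among 16 genes associated with IRF4, 1 rose and none fell (2.23% of all genes were called), 8 had an unadjusted p under 0.05 (18.1% of all genes did), and the median was 0.10. Clec10a, a galactose-type lectin of type 2 conventional cells and macrophages, read 7.54 and 7.13 in control and 9.14 and 9.27 with SAHA. Its arrays stood apart by over a log2 unit, and it rose 3.65-fold (1.87 ± 0.19, SE, adjusted p = 0.0140). The call was lost without SAHA replicate 1 (1.93, adjusted p = 0.0694) or SAHA replicate 2 (1.80, 0.0539). Cd24a, a surface glycoprotein of type 2 and other dendritic cells, gave 1.35 ± 0.26 (adjusted p = 0.0591). Ciita (1.09), also among the IRF1-associated genes, and Klf4 (0.71), also a partner gene, are on this list too. Both had an unadjusted p under 0.05, so the counts of these lists share genes. Arg1, the arginase of alternatively activated macrophages, went the other way on the arrays, at 7.10 and 9.58 in control and 3.74 and 5.74 with SAHA, and was not called. Its difference of -3.60 ± 0.90 (SE, adjusted p = 0.111) was the lowest of all genes and passed without control replicate 1 (-4.84, adjusted p = 0.0159). The first SAHA value was below the 25th percentile of that array. Prdm1 was lower too, at -0.50 (limma adjusted p = 0.198), and its unadjusted p was also under 0.05. Ccl22, Pdcd1lg2 and Ccl17 gave 0.05, -0.04 and 0.09, and these and Prdm1 were named after their values were seen. Of the 16 genes, 11 lay above 0 and 5 (31.2%) below it, beside 58.8% of all genes below 0.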

How the data were processed

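The table deposited by the authors holds a log2 value for each probe set and array. That scale was read from the values (2.59 to 14.97), and array medians differed little, so the deposited normalization was kept. The submitters' processing notes name R 2.7. The summarisation and normalization methods are not stated in the labels used here. Of 45101 probe sets 34958 had 1 symbol in the platform annotation, 932 several and 9211 none, and symbols were updated through Entrez identifiers for 34754. Groups came from the sample titles.

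Arrays were compared over 18194 genes with limma 3.58.1 in R 4.3.3 (lmFit, eBayes with trend), two-sided, with no filter or covariate. Calls needed a Benjamini-Hochberg adjusted p under 0.05 over all genes. The test was tested on simulated data. Arrays give no depth, and their number limits the precision.

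The members and lists were chosen with earlier results of these data known. Named are the members, the called genes and the 4 largest changes of each list, and the 3 genes nearest to the called member among those above the median level; others are marked.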

Additional observations from a re-analysis of the deposited data

How the results depend on the processing

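Irf4 kept its direction in all 16 alternatives and passed the threshold in 7. It missed it with values floored at the 20th percentile (adjusted p = 0.171), among genes above the median level (0.0532), with each probe set tested on its own (0.0593) and in an ordinary linear model (0.349), beside the settings given above and a threshold of 0.01. The count of called members was 0 in these settings and with the mean of probe sets, 3 with the replicate block, and 0 to 1 without single arrays. The count over all genes was 405, against 0 with the floor (3034 at an unadjusted p under 0.05), 226 above the median level, 253 with each probe set, 0 in the ordinary model (2210), 8 at 0.01, 3616 with the replicate block, and 31 to 529 without single arrays (31 without SAHA replicate 1, 90 without SAHA replicate 2). Calls were made without a replicate block, because the labels name no culture shared by same-numbered arrays. Their deviations correlated at 0.57 over genes. With 2 arrays per group, genes that vary together can give a correlation of either sign, depending on the numbering. Whether the numbers pair the arrays was therefore not settled by it. Under the block Irf7 (adjusted p = 1.9e-05) and Irf8 (0.00897) also passed, and list counts were 3 for interferons and receptors, 2 for activation, 7 for partners, 9 for interferon-stimulated, 10 for IRF1-, 4 for IRF8- and 8 for IRF4-associated genes. The IRF4-associated count was 0 with the floor and 0 to 4 without single arrays, and the interferon-stimulated and IRF1-associated counts were 0 to 2. Signs turned for Irf2 with quantile normalization (-0.044) and Ifnar2 with the mean of probe sets (-0.061). Without single arrays they turned for Irf1 (-0.55 to 0.0073), Irf2 (-0.13 to 0.18), Irf3 (-0.11 to 0.22), Irf9 (-0.23 to 0.075), Ifnb1 (-1.21 to 0.094), Cmpk2 (-0.37 to 2.40), Ifit3 (-0.12 to 1.33) and Cxcl9 (-0.57 to 1.71). The causes were not tested.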
